A study of Homo sapiens with 8 samples.

Results

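The genes described here are 10 regulators of red cell development: GATA1, KLF1, TAL1, NFE2, LDB1, LMO2, ZFPM1, GFI1B, BCL11A and MYB. They were chosen by name and found through their Ensembl identifiers among the 20453 genes counted, and all 10 were present. Messenger RNA and ribosome footprints, the fragments of mRNA shielded by translating ribosomes, were sequenced from cells labelled THP-1, a line derived from a monocytic leukaemia. The cells had been transduced with wild-type DNMT3A (wt) or with a DNMT3A mutant (mut), a DNA methyltransferase often altered in myeloid leukaemia. There were 4 groups, wt and mut in each assay, with 2 libraries in each. Both groups therefore carry an introduced DNMT3A beside any copy of their own. The sources used here do not name the vector or its promoter or say whether the cells were a pool or a clone, and untransduced cells were not analysed here. Nothing in the labels says that the 2 libraries of a group are separate cultures. The p-values then cover only the spread between libraries, which may be technical. That spread was estimated with information shared among genes, so it need not match the spread of a single gene.

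Red cell genes are switched on by a small set of DNA-binding proteins that work together. GATA1 binds GATA motifs, TAL1 binds E-boxes as a dimer with an E protein, and the adaptor LMO2 joins both to LDB1, which brings distant enhancers to their promoters. KLF1 acts at CACCC boxes of globin and membrane genes, NFE2 at the globin enhancers, ZFPM1 (FOG1) is the cofactor GATA1 needs in red cells and megakaryocytes, GFI1B and BCL11A repress genes, the latter the fetal globins, and MYB maintains dividing progenitors.

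Library depth was 3415999 to 4523475 counts for mRNA and 603360 to 1988513 for footprints, with both mut footprint libraries below both wt ones. Levels are given as CPM, counts scaled to a common library size with TMM factors within each assay, and a floor of 3 counts corresponds to 0.673 to 0.887 CPM of mRNA and 1.55 to 4.92 CPM of footprints, for counting error only. DNMT3A itself, for which endogenous and introduced copies are counted together, stood at 291 and 294 CPM of mRNA in wt and 241 and 244 CPM in mut. Of 12 erythroid markers, 12 reached 10 CPM of mRNA in both genotypes, and their summed level was 2671 to 2692 CPM in wt and 2413 to 2437 CPM in mut. Within that sum TFRC averaged 917 CPM in wt and 881 CPM in mut, and HBZ 389 and 209 CPM. HEMGN went the other way, from 228 to 265 CPM. Of 16 monocyte and myeloid markers, 3 (CD33, LYZ and CD68) reached 10 CPM, with sums of 120 to 130 CPM, and the defining genes CSF1R, S100A8, S100A9, FCN1, CD163, MPO, ELANE and IRF8 had no mRNA count in any library. The label THP-1 and the label monocytic cell are thus not matched by these markers, and no other name is given to the cells here. Platelet genes PF4, PPBP, GP9 and GP1BA had no mRNA count, 2 of 10 megakaryocyte markers reached 10 CPM, and their sum of 257 to 271 CPM in wt and 188 to 200 CPM in mut was mostly 1 gene, GP1BB (243 and 176 CPM on average), while ITGA2B was at 13.5 and 12.5 CPM. Mast cell, T cell and B cell lists had 0 of 8, 1 of 8 and 0 of 6 markers at 10 CPM. In bulk libraries, fewer cells of a type and less RNA per cell cannot be told apart, and the part of either in the results was not tested.

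The promoters show which of the factors' own motifs stand at the members' start sites, and 5 windows are printed: each one with a GATA word, that of GATA1 itself, and that of ZFPM1, the factor whose mRNA and footprints moved apart. RefSeq start sites on GRCh38.p14 matched 8 of the 10 genes, with 14 windows of 250 bases before the start. LMO2 and NFE2 had no entry. Searched on both strands were GATA words (AGATAA or AGATAG or TGATAA or TGATAG), the CACCC box (CCNCNCCC), the E-box (CANNTG) and the NFE2 core (TGANTCA). The pattern used for the CACCC box is wider than the letters CACCC and also matches stretches without them. Of 35116 windows of this length, 22.3% held a GATA word, 53.4% a CACCC box, 61.8% an E-box and 6.57% an NFE2 core, and matches of different motifs were allowed to overlap. The CACCC pattern had a mean of 1.46 matches per window. In 3 of the windows, shown first, a GATA word was found, and capitals mark it. The KLF1 window is chr19:12887202-12887451 on the minus strand, that of TAL1 chr1:47232336-47232585 on the minus strand, and that of GFI1B, the second of its start sites, chr9:132978444-132978693 on the plus strand.
KLF1: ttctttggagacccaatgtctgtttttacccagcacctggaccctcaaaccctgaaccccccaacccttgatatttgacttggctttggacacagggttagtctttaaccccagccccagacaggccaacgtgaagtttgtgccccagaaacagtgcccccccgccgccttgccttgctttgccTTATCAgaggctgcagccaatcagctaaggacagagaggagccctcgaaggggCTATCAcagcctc
TAL1: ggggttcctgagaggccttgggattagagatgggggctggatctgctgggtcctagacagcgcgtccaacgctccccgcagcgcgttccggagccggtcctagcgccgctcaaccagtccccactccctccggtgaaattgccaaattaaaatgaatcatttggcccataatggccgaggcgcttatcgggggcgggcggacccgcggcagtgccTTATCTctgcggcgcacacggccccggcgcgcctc
GFI1B: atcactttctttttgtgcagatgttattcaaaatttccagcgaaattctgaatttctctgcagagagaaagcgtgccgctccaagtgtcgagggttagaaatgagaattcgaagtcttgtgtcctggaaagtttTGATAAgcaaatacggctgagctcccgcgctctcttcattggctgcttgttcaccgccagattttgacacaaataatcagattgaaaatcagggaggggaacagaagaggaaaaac
The GATA words begin 66 and 13 bases before the start in KLF1, 35 bases before it in TAL1 and 116 bases before it in GFI1B. The TAL1 window also holds an NFE2 core 98 bases before the start. The windows of GATA1 (chrX:48786340-48786589, plus strand) and ZFPM1 (chr16:88453030-88453279, plus strand) held no GATA word. Capitals mark their matches to the CACCC pattern, of which overlapping matches were counted singly, 4 in GATA1 and 9 in ZFPM1. None of the matches in ZFPM1 holds the letters CACCC themselves on either strand. Of the windows not printed, that of LDB1 held 4 matches to the CACCC pattern, that of MYB 3 and those of BCL11A 0 to 6.
GATA1: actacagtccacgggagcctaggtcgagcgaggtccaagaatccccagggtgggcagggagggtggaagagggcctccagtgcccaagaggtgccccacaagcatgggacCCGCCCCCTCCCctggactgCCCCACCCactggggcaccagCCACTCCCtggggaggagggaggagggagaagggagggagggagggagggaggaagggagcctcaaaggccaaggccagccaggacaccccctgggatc
ZFPM1: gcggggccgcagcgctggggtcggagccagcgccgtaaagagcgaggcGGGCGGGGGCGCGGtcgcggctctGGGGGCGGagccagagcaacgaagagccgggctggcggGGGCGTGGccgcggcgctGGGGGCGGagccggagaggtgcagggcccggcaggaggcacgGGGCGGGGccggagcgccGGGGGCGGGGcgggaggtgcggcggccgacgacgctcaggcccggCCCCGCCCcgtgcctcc
The ZFPM1 window is 83.2% G and C, at the 99.0 percentile of all windows, whose median was 58.0%. A match is a stretch of letters and not a measured binding site.

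In mRNA, 8 of the 9 factors that passed the filter on low counts fell in mut by edgeR's quasi-likelihood test and none rose. The exception, MYB, was higher at an unadjusted p under 0.05 but not after adjustment, and DESeq2 called none higher either. Among all 10756 genes tested, 18.9% were called lower and 18.9% higher, 37.7% in all. The median log2 difference of the 9 was -0.35, against -0.0022 for all genes. The largest fall was that of ZFPM1 and the smallest called one that of GATA1. Fewer footprints were counted for 5 of the factors and more for 1, ZFPM1, where 10.9% of 9181 genes were lower and 10.3% higher, 21.2% in all. The median was -0.34 against 0.0055 for all genes. The ratio of footprints to mRNA differed for 1 factor, ZFPM1, and 1.67% of 9166 genes were called higher and 2.49% lower on that measure. BCL11A had too few counts to pass the filter, and with no filter on low counts it was not called in any comparison.

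**Figure D1:**
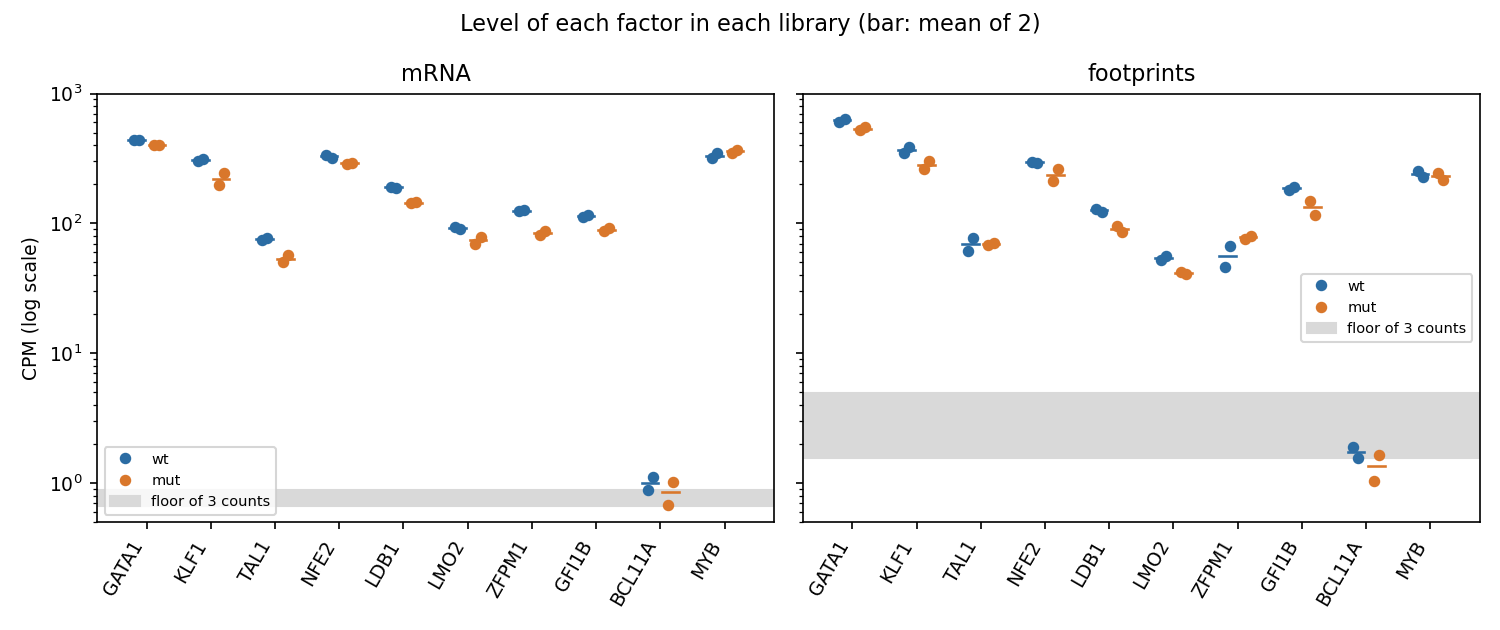
Level of each of the 10 factors in each library, as CPM on a log axis, with mRNA and footprints in separate panels, points for the 2 libraries of a group and a bar for their mean. The BCL11A points lie near 1 CPM, and heights of different genes are not comparable because gene lengths are not divided out.

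**Figure D2:**
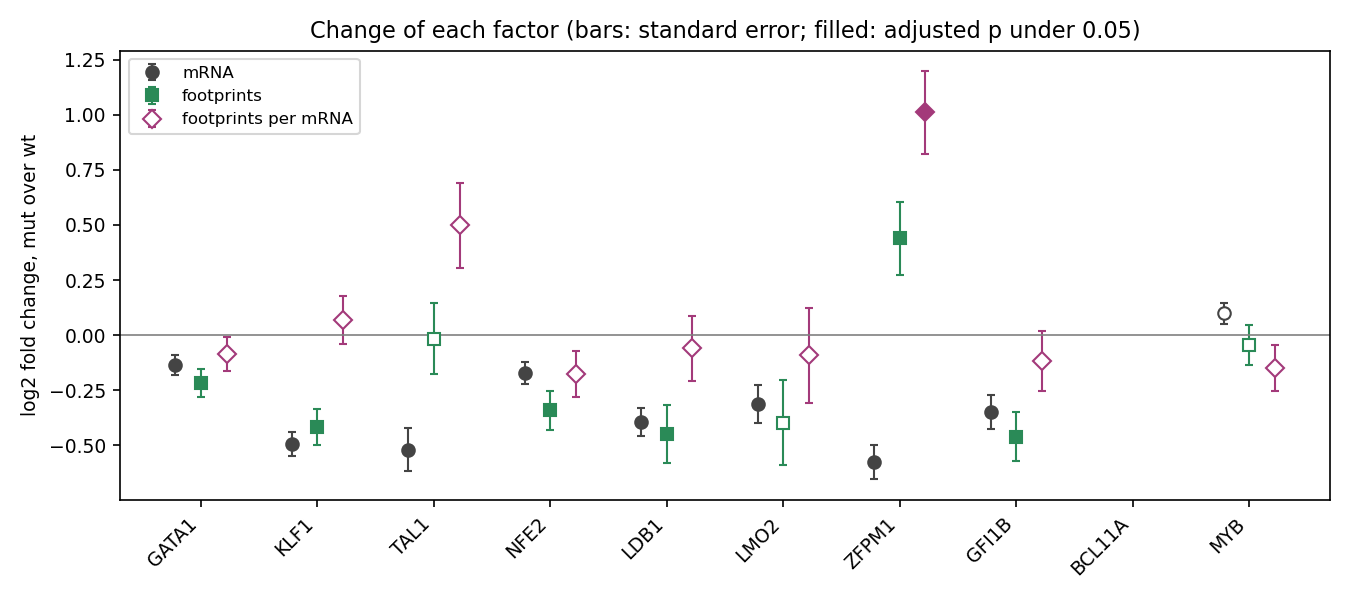
Log2 difference of mut against wt for each factor in mRNA, footprints and footprints per mRNA, with standard errors as bars and filled points for an adjusted p under 0.05. The mRNA points of all tested factors but MYB lie below 0, and ZFPM1 is the member whose mRNA and footprint points lie on opposite sides with both filled.

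The size of a difference moved with the position of genes in the genome. Protein-coding genes within 0.5 Mb were counted around each gene, the gene itself included where it is protein-coding. Genes with a count of at most 5 had a median mRNA difference of 0.18, and those with 31 or more a median of -0.22. In footprints the medians were 0.16 and -0.16. This count, with the factor itself in it, is 37 for GATA1, 39 for KLF1, and 19 to 24 for GFI1B, NFE2, LDB1 and ZFPM1. TAL1 has 11, LMO2 8 and MYB 4. A setting with this trend over gene density removed is given where it ends a call.

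GATA1, a zinc finger protein and the central activator of red cell genes (ENSG00000102145, chromosome X, 48786590 to 48794311), was among the members with the most counts. Its mRNA was 438 and 437 CPM in wt and 398 and 399 CPM in mut. The groups did not overlap, although the difference is small: the log2 difference was -0.14 (SE 0.046, adjusted p = 0.012). Footprints were 608 and 631 CPM in wt and 521 and 553 CPM in mut, again without overlap, a log2 difference of -0.22 (SE 0.064, adjusted p = 0.0081). The mRNA call was lost without either wt library (adjusted p = 0.11 without replicate 1 and 0.16 without replicate 2), and the footprint call without wt replicate 2 (0.058) or mut replicate 1 (0.32). DESeq2 called neither (adjusted p = 0.13 in mRNA and 0.15 in footprints), and with the trend over gene density removed the mRNA difference was 0.058 (adjusted p = 0.32) and that in footprints -0.071 (adjusted p = 0.44).

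KLF1, the activator of adult globin and red cell membrane genes (ENSG00000105610, chromosome 19, 12884422 to 12887201), fell more. Its mRNA was 300.1 and 313 CPM in wt and 196 and 242 CPM in mut. Both mut libraries lay below both wt libraries, and the mut libraries differed from each other more than the wt ones did. The log2 difference was -0.49 (SE 0.054, adjusted p = 1.3e-17). It was -0.34 without mut mRNA replicate 1 and -0.64 without mut mRNA replicate 2. The SE rests on variation estimated partly from other genes, and need not carry the spread between KLF1's own mut libraries. DESeq2 also called the mRNA fall (adjusted p = 0.01). Footprints were 350.2 and 388 CPM in wt and 263 and 300.4 CPM in mut, a log2 difference of -0.42 (SE 0.082, adjusted p = 4.4e-05). Without mut replicate 1 the footprint call was lost (adjusted p = 0.17).

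TAL1, the basic helix-loop-helix factor of blood stem cells and red cells (ENSG00000162367, chromosome 1, 47216290 to 47232335), was called in mRNA and not in footprints. Its mRNA was 74.2 and 77.8 CPM in wt and 50.2 and 56.6 CPM in mut. The log2 difference was -0.52 (SE 0.096, adjusted p = 1e-06). Its footprints were 60.9 and 77.1 CPM in wt and 68.0 and 70.6 CPM in mut. The mut values lie between the wt values, and the log2 difference of -0.015 (SE 0.161, adjusted p = 0.97) was not called. The difference between both changes was 0.50 (SE 0.192), which did not pass (adjusted p = 0.14, edgeR's test of the interaction).

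NFE2, the subunit that pairs with a small MAF protein at globin enhancers (chromosome 12, 54292111 to 54301015), fell slightly in mRNA and in footprints. Its mRNA was 338 and 317 CPM in wt and 286 and 294 CPM in mut, a log2 difference of -0.17 (SE 0.051, adjusted p = 0.0037). Its footprints were 298 and 292 CPM in wt and 211 and 264 CPM in mut, a log2 difference of -0.34 (SE 0.089, adjusted p = 0.0025). In neither assay did the groups overlap, but the mut footprint libraries were far apart. Without mut footprint replicate 1 the difference was -0.16 (adjusted p = 0.5), and without wt mRNA replicate 1 the mRNA call was lost (0.17). DESeq2 called neither (adjusted p = 0.098 in mRNA and 0.14 in footprints), and with the trend over gene density removed the mRNA difference was -0.060 (adjusted p = 0.37).

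LDB1, which holds enhancer and promoter together (chromosome 10, 102102088 to 102121442, overlapping PPRC1), was lower in mut in both assays. Its mRNA was 192 and 189 CPM in wt and 144 and 146 CPM in mut, a log2 difference of -0.39 (SE 0.063, adjusted p = 1.6e-08). Its footprints were 130.1 and 122 CPM in wt and 96.3 and 85.4 CPM in mut. Their log2 difference was -0.45 (SE 0.131, adjusted p = 0.008), and DESeq2 did not call it (-0.47, adjusted p = 0.18). The footprint call was lost without either mut library (adjusted p = 0.12 in each case).

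LMO2, the adaptor between TAL1 and LDB1 (chromosome 11, 33858576 to 33892076), had fewer counts. Its mRNA was 93.1 and 90.8 CPM in wt and 70.0 and 78.5 CPM in mut, a log2 difference of -0.31 (SE 0.085, adjusted p = 0.0014). Without mut mRNA replicate 1 the difference was -0.22 (adjusted p = 0.087), and DESeq2 did not call it (-0.31, adjusted p = 0.11). Its footprints were 52.7 and 56.4 CPM in wt and 41.9 and 41.0 CPM in mut. They did not overlap, and their log2 difference of -0.40 (SE 0.192, adjusted p = 0.13) did not pass at counts of 25 to 109 per library.

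GFI1B, a repressor that recruits LSD1 and CoREST (chromosome 9, 132945531 to 132993434), fell in both assays. Its mRNA was 112 and 115 CPM in wt and 86.6 and 92.8 CPM in mut, a log2 difference of -0.35 (SE 0.078, adjusted p = 6.5e-05). Its footprints were 182 and 191 CPM in wt and 149 and 117 CPM in mut. Their log2 difference was -0.46 (SE 0.111, adjusted p = 0.00093), and DESeq2 did not call it (-0.49, adjusted p = 0.085). The groups did not overlap, and without mut footprint replicate 2 the footprint call was lost (adjusted p = 0.1).

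BCL11A, the repressor of fetal globin genes (chromosome 2, 60450520 to 60553924), was at the floor. It had 3 and 5 mRNA counts in wt and 3 and 4 in mut, and 3 and 3 footprint counts in wt and 1 and 1 in mut. A difference was not detectable at this depth.

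MYB, the factor of dividing progenitors (chromosome 6, 135181308 to 135219172, overlapping the noncoding gene LOC105378011), was the 1 tested member with a higher mean mRNA level in mut. Its mRNA was 319.9 and 345 CPM in wt and 348 and 367 CPM in mut. The groups did not overlap, yet the log2 difference of 0.099 (SE 0.049, adjusted p = 0.099) was not called. Without mut mRNA replicate 1 it was called (0.14, adjusted p = 0.042), and with the trend over gene density removed it was -0.070. Its footprints were 254 and 229 CPM in wt and 245 and 215 CPM in mut, overlapping, with a log2 difference of -0.045 (SE 0.092, adjusted p = 0.78).

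ZFPM1 had 2 readouts that moved in opposite directions (chromosome 16, 88451769 to 88537031). Its mRNA was 125 and 126 CPM in wt and 81.2 and 87.7 CPM in mut, a fall of 0.58 on the log2 scale (SE 0.077, adjusted p = 5.1e-12). Its footprints were 46.3 and 66.7 CPM in wt and 76.4 and 80.4 CPM in mut, a log2 difference of 0.44 (SE 0.164, adjusted p = 0.043). In both assays the groups were apart, but the footprint values rest on 73 and 129 counts in wt and 73 and 49 in mut. The rise in footprints alone was lost without wt replicate 1 (0.22, adjusted p = 0.41), without mut replicate 1 (adjusted p = 0.33), without mut replicate 2 (0.26), with DESeq2 (0.36) and with no filter on low counts (0.12). The change in footprints exceeded the change in mRNA by 1.01 on the log2 scale, 2.01-fold (SE 0.187). By edgeR's test of the interaction the adjusted p was 0.00011. That difference lay between 0.79 and 1.32 with any 1 library left out, and DESeq2 called it (adjusted p = 0.0035). With a variation of 10% assumed, edgeR's likelihood ratio test did not call it (1.02, adjusted p = 0.093). The rise in footprints was not called then either (0.45, adjusted p = 0.25). The gene overlaps ZFPM1-AS1, MIR5189 and LOC107984890, and since the strand setting of the counting is not given in the sources used here, reads of these partners cannot be told apart from its own.

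Separation of the groups was common in these libraries. The mut mRNA libraries lay below both wt libraries for 8 of the 9 tested factors, and for 33.9% of all genes tested, and MYB lay above, as did 34.0% of genes. Footprints of 6 factors lay below, against 29.3% of genes, and those of ZFPM1 lay above, against 29.5%.

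Dividing footprint CPM by mRNA CPM gives a ratio whose level depends on how much of each transcript is coding, so values of different genes are not comparable, and the change of 1 gene between genotypes is what the ratio shows. In wt the ratio of ZFPM1 was 0.450 (0.366 to 0.535 over the pairings of libraries). In mut it was 0.928 (0.871 to 0.991), and the ranges did not overlap. The ratio of TAL1 was 0.908 (0.783 to 1.04) in wt and 1.30 (1.20 to 1.41) in mut, also without overlap but without a call. GATA1 went from 1.42 in wt to 1.35 in mut, KLF1 from 1.20 to 1.28, GFI1B from 1.64 to 1.48 and NFE2 from 0.900 to 0.819. LDB1 went from 0.662 to 0.628, LMO2 from 0.593 to 0.558 and MYB from 0.726 to 0.643. For these 7 the adjusted p of the interaction lay between 0.39 and 0.88. These p-values do not show that the ratios were equal.

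**Figure D3:**
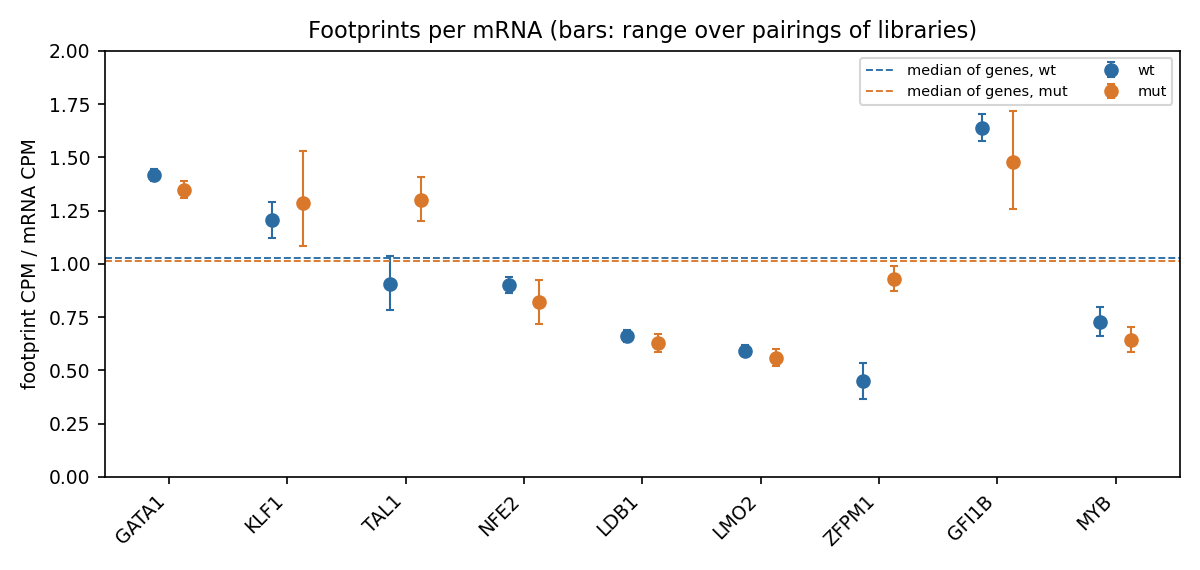
Ratio of footprint CPM to mRNA CPM for the 9 tested factors in wt and mut, with bars for the range over the pairings of libraries. ZFPM1 moves from 0.450 to 0.928 and TAL1 from 0.908 to 1.30.

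With the trend over gene density removed, KLF1, TAL1, LMO2, LDB1, GFI1B and ZFPM1 were still called lower in mRNA, 6 of 9 against 13.7% of all genes. GATA1, NFE2 and MYB were not called in mRNA. In footprints KLF1, LDB1, GFI1B and NFE2 were still lower, 4 of 9 against 8.62% of genes, and ZFPM1 was still higher, against 7.97% of genes.

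The coefficient of variation that edgeR estimated in common for all genes, beyond counting error, was 2.25% for mRNA and 1.92% for footprints. Libraries of a group could differ by more in a single gene. For KLF1 mRNA in mut the SD was 32.6 CPM around a mean of 219 CPM, counting error included. With a variation of 10% assumed in place of edgeR's estimate, edgeR's likelihood ratio test took the place of the quasi-likelihood test. KLF1 (adjusted p = 0.049) and ZFPM1 (adjusted p = 0.028) were then called lower in mRNA, 2 of 9 against 1.26% of genes. Under the same assumption none of the 9 was called in footprints or in the ratio by edgeR, with 4 and 1 at an unadjusted p under 0.05, and 3.14% and 0.142% of all genes were called. DESeq2 called KLF1, TAL1, LDB1, GFI1B and ZFPM1 lower in mRNA, 5 of 9 (10.7% of genes), and 1 of 8 lower in footprints, KLF1 (6.94%), and ZFPM1 in the ratio, 1 of 7, called higher there as were 1.27% of genes. With the gene density trend removed ZFPM1 was also the 1 factor called higher in the ratio, against 1.66% of genes.

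**Figure D4:**
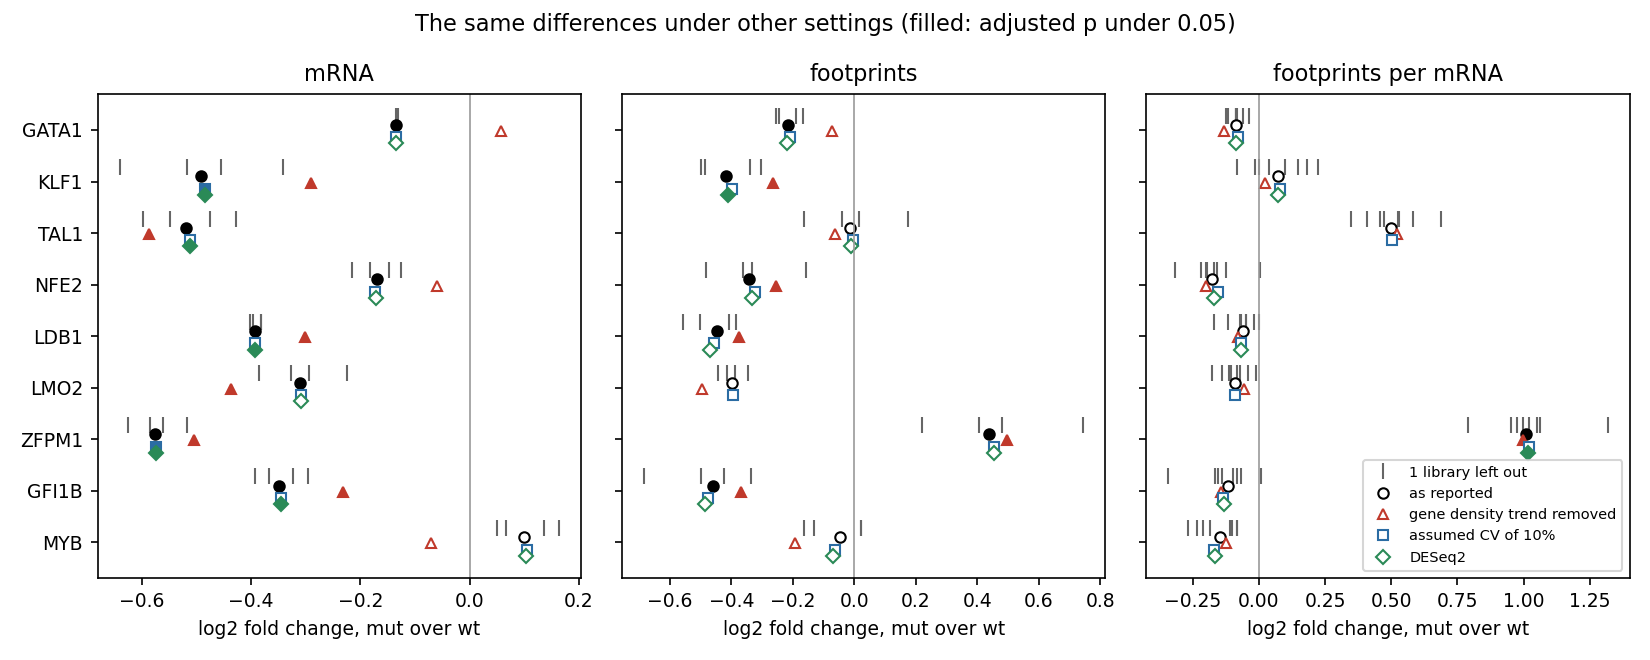
Log2 difference of mut against wt for each tested factor under other settings, with a panel for each comparison and filled points for an adjusted p under 0.05. GATA1 in mRNA crosses 0 once the gene density trend is removed, and the ZFPM1 difference in footprints per mRNA lies between 0.79 and 1.32 with any 1 library left out.

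The partners of the LDB1 complex fell in mRNA more often than they rose. Of 12 tested, 7 were lower and 1, SSBP2, was higher (log2 difference 0.36), where 18.9% of all genes were lower and 18.9% higher. Their median was -0.18. The E protein TCF3, which dimerises with TAL1, fell from 304 to 235 CPM on average (-0.39, SE 0.053, adjusted p = 2.2e-11). GATA2, the GATA factor of progenitors, fell from 433 to 350.4 CPM (-0.31, adjusted p = 2e-09). The LDB1-binding protein SSBP4 fell by 0.46 on the log2 scale. The corepressor CBFA2T3 (ETO2) was lower in mRNA (-0.34) and in footprints (-0.47, adjusted p = 0.00013), as were RUNX1 (-0.39 and -0.61) and GATA2 (-0.24 in footprints). Those were the 3 of 12 called in footprints, where 10.9% of all genes were lower. DESeq2 called 4 lower in mRNA (10.7% of genes) and 1 in footprints (6.94%).

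Among chromatin cofactors of these regulators, 9 of 24 were lower in mRNA and 3 higher (18.9% of all genes each way), with a median of 0.0085. GATAD2A (-0.37) and MTA1 (-0.34) of the NuRD complex and GSE1 (-0.28) of the CoREST complex fell, while the histone deacetylase HDAC2 rose from 117 to 156 CPM (0.42, adjusted p = 2.9e-08). MTA3 (0.44) and RBBP4 (0.17) were the others that rose. In footprints HDAC2 was the 1 called higher (0.50, adjusted p = 4.2e-05) and HMG20B the 1 called lower (-0.53, adjusted p = 0.0051), of 24, a smaller share than the 10.3% and 10.9% of all genes. DESeq2 called 5 lower (10.7% of genes) and 1 higher (8.53%) in mRNA.

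Of the 3 small MAF partners of NFE2, 2 were lower in mRNA. MAFG fell from 32.1 to 21.3 CPM of mRNA (-0.61, SE 0.147, adjusted p = 0.00026) and in footprints (-0.89, adjusted p = 0.0054), and MAFK fell in mRNA (-0.65, adjusted p = 0.0025) without a call in footprints (adjusted p = 0.11). MAFF was called in neither (-0.35, adjusted p = 0.25 in mRNA, and -0.42, adjusted p = 0.48 in footprints). BACH1, a repressor that uses the same partners, rose in mRNA (0.24) and in footprints (0.44), NFE2L2 rose in mRNA (0.23) and NFE2L3 in footprints (0.75, adjusted p = 0.017). With the trend over gene density removed, BACH1 (0.097, adjusted p = 0.28) and NFE2L2 (0.066, adjusted p = 0.44) in mRNA and NFE2L3 in footprints (0.61, adjusted p = 0.069) were not called. Thus 2 of 8 were lower and 2 higher in mRNA, near the 18.9% of all genes each way, and 1 was lower and 2 higher in footprints (10.9% and 10.3% of genes). DESeq2 called none in either assay.

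Of 15 other regulators of globin switching, 5 were lower in mRNA and none higher (18.9% of all genes each way). They were ZBTB7A (-0.50, adjusted p = 1.3e-07), a repressor of fetal globin, HIC2 (-0.39), IKZF1 (-0.32), KLF13 (-0.63) and NFIX (-0.48), and DESeq2 called 3 lower (10.7% of genes). In footprints edgeR and DESeq2 called none of 15, with 3 at an unadjusted p under 0.05 by edgeR, HIC2 being nearest (-0.28, adjusted p = 0.052), and called without wt footprint replicate 1 (-0.31, adjusted p = 0.048).

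Genes that these factors activate in red cells gave counts in both directions. In mRNA 15 of 40 tested were lower and 1, HEMGN (0.22), higher (18.9% of all genes each way), with a median of -0.16. In footprints 14 of 35 were lower (10.9% of genes) and 4 higher, near the 10.3% of all genes, with a median of -0.31. The embryonic globin HBZ fell from 389 to 209 CPM of mRNA (-0.90, SE 0.052, adjusted p = 2.2e-62) and in footprints from 438 to 210.2 CPM (-1.02, SE 0.085, adjusted p = 4.8e-19). The adult globin HBB, whose level is not given here, fell in mRNA by edgeR's test (-1.06, SE 0.210, adjusted p = 5.6e-06). It also fell in footprints (-0.80, SE 0.226, adjusted p = 0.0056). Both SEs of HBB were larger than those of HBZ, and the falls of the 2 genes were not tested against each other. The membrane skeleton gene ANK1 fell from 501 to 346 CPM of mRNA (-0.53, adjusted p = 3.6e-27) and pyruvate kinase PKLR from 176 to 120.4 CPM (-0.55, adjusted p = 2.6e-14), both also lower in footprints. Those with more footprints included the red cell membrane gene GYPB (0.57) and the fetal globins HBG1 (0.35) and HBG2 (0.66), whose near-identical copies make the split of reads uncertain. HBA1 is uncertain for the same reason, with an mRNA difference of -0.47 and 0 to 2 footprint counts per library. On footprints per mRNA, BLVRB (-0.45) and HEMGN (-0.47) were lower and HBG2 (0.71) higher, 3 of 35, against 4.16% of all genes. DESeq2 called 7 of the targets lower in mRNA (10.7% of genes), and 3 lower (6.94%) and 1 higher (3.14%) in footprints.

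Factors of opposing lineages were mostly too low to test. Of 15, 7 passed the filter in mRNA, with CEBPB (-0.52, adjusted p = 3.5e-12) and HHEX (-0.17, adjusted p = 0.024) lower. SPI1 (PU.1), which opposes GATA1, had a log2 difference of -0.25 in mRNA (adjusted p = 0.068) and -0.50 in footprints (adjusted p = 0.066, and 0.045 without wt footprint replicate 2). Neither edgeR nor DESeq2 called any of the 5 tested in footprints, with 1 at an unadjusted p under 0.05 by edgeR. Among relatives and targets of MYB, MYC fell from 1269.9 to 979 CPM of mRNA (-0.38, SE 0.037, adjusted p = 3.2e-21) and in footprints (-0.51, adjusted p = 4.1e-15). MYBL2 was lower (-0.24) and CCNB1 higher (0.15, adjusted p = 0.045, and 0.11 with the trend over gene density removed) in mRNA, of 6 tested. KIT, near 10 CPM, was not called.

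**Figure D5:**
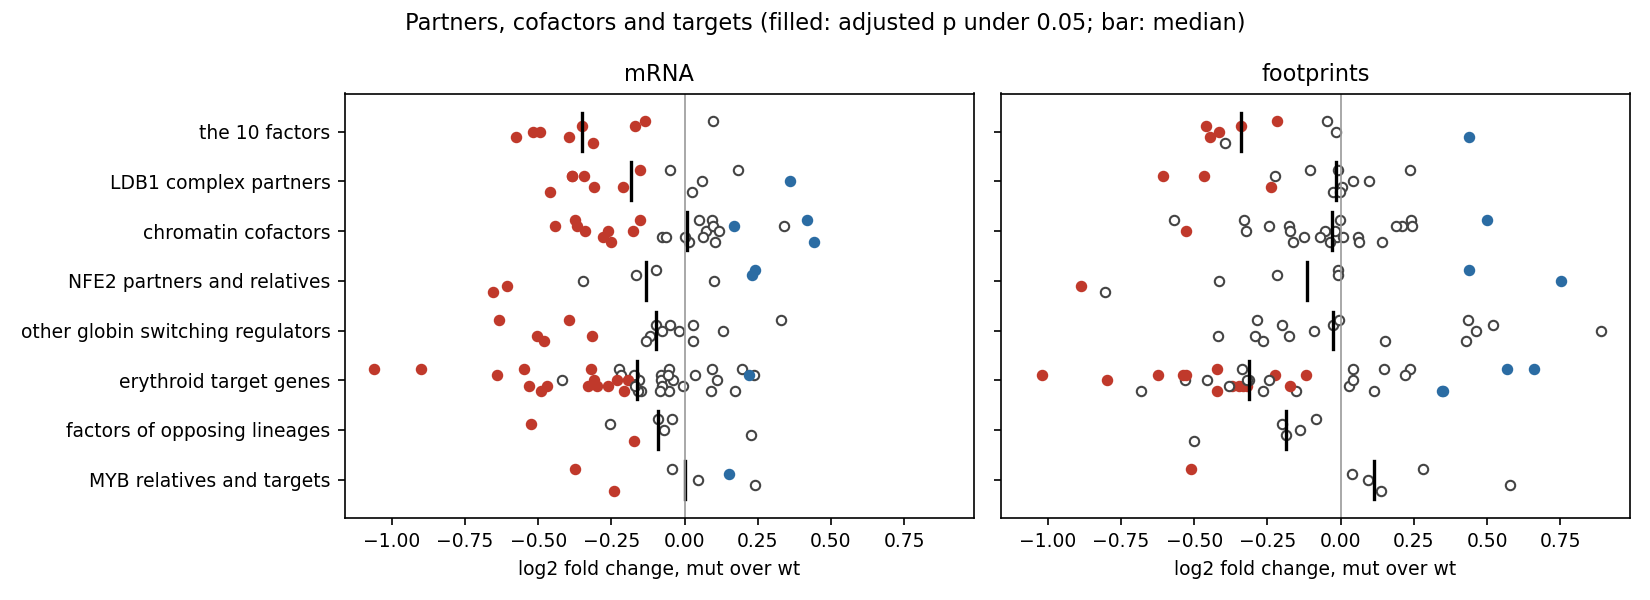
Log2 difference in mRNA and in footprints of the tested genes of the 10 factors and of each of the 7 companion lists, 1 point per gene, coloured where called lower or higher at an adjusted p under 0.05. HBB at -1.06 and HBZ at -0.90 in mRNA lie far below the median of their list, -0.16.

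Over the 8 libraries, the genes whose log2 CPM, centred within each assay, followed GATA1 most closely were SLC39A4 (Pearson r = 0.998), IMP3 (0.997) and RNASEK (0.993), among 8447 genes. For KLF1 they were HGH1 (0.988), ZNF579 (0.986) and ISYNA1 (0.986). With 8 libraries in 2 genotypes such values describe the ranking only, since the libraries differ in depth and genotype.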

How the data were processed

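Each library was deposited as a file of raw read counts, 1 whole number per Ensembl gene. Named in the submitters' processing notes, without role or version, are STAR, Bowtie2, featureCounts, Trimmomatic and cutadapt, with the builds GRCh38 and hg38. Annotation release, counted feature, strand setting and handling of multiply matching reads: not given in the sources used here. Per the labels' protocols, mRNA was copied with oligo(dT), and footprints were made with RNase I, sized on a gel and depleted of ribosomal RNA. The substitution in the DNMT3A mutant is not reported here.

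The tests used edgeR 4.0.16 under R 4.3.3 (glmQLFit with legacy set to FALSE, glmQLFTest), with TMM factors within each assay, filterByExpr by genotype and Benjamini-Hochberg adjustment over all genes tested. A call is an adjusted p under 0.05. SE was derived as the absolute log2 difference divided by the square root of the F statistic of its test. For footprints per mRNA the genotype by assay interaction was tested on all 8 libraries, on genes that passed both filters. The scripts were tested on simulated data. Symbols were matched for 20407 of 20453 identifiers and positions for 19637. Alternatives were DESeq2 1.42.0, its size factors in edgeR, no filter, each library left out, a replicate block and an assumed coefficient of variation of 10%. The assumed variation went with glmFit and glmLRT, a likelihood ratio test, in place of the quasi-likelihood test. A further alternative removed the trend over gene density. For each library, log2 CPM as deviation from the assay mean was fitted by loess on the log2 number of nearby genes. That fit entered the model as an offset. Protein-coding genes under 0.5 Mb away were counted on each side, a protein-coding gene itself included. Sequences are RefSeq's.

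The 10 factors and all gene lists were chosen with earlier results of these data known. Named genes were the 10 factors, from each of the 7 companion lists the 4 with the smallest p in mRNA and the 2 in footprints among genes of at least 10 CPM, and for GATA1 and KLF1 the 3 genes of highest correlation. SSBP2, MTA3, MAFF, RBBP4, NFIX, HEMGN, GYPB, HBB, HBG1 and HBG2 were named after their values were seen.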

Additional observations from a re-analysis of the deposited data

Results flagged for a closer look

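The change of ZFPM1 in footprints differed from its change in mRNA by 1.01 on the log2 scale, with mRNA lower and footprints higher in mut. The adjusted p in edgeR's test of the difference itself was 0.00011. With a variation of 10% assumed it was 0.093 by the likelihood ratio test, without a call. The footprint counts of ZFPM1 were 49 to 129 per library. BLVRB, biliverdin reductase B, a haem-pathway enzyme of red cells, differed by -0.45 in the same test (adjusted p = 1.8e-06). Its mRNA averaged 541 CPM in wt and 513 CPM in mut, which was not called (adjusted p = 0.14), while its footprints averaged 1253 and 875 CPM, a log2 difference of -0.53 (adjusted p = 9.7e-15).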

How the results depend on the processing

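Of the factors' values under other settings, 250 kept their direction and their status as called or not called, 38 lost the call, 2 gained it and 13 changed sign. For the companion genes these numbers were 345, 62, 4 and none. The values that kept their status include many called in neither setting. GATA1 mRNA with the gene density trend removed also lost its call, but stands among the changed signs. DESeq2 called 1305 genes in mRNA where edgeR called 4060, 366 against 1950 in footprints, and 114 against 381 in the ratio of both. It called 5 of the factors in mRNA in place of 8 and 1 in footprints in place of 6. Assuming a variation of 10% left 313 genes in mRNA, 288 in footprints and 13 in the ratio, and 2, 0 and 0 factors by edgeR, with 5, 4 and 1 factors at an unadjusted p under 0.05. Leaving out 1 library gave 2280 to 3838 genes in mRNA, 274 to 1799 in footprints and 142 to 448 in their ratio. The lowest were without wt mRNA replicate 2 and, for both others, without mut footprint replicate 1. The factors called then numbered 6 to 8 in mRNA and 1 to 5 in footprints, where 1 (GFI1B) was left without mut footprint replicate 1 and 3 without mut footprint replicate 2. An arm left with 1 library was assumed to vary like the other. With the gene density trend removed, GATA1 (0.058) and MYB (-0.070) changed sign in mRNA without a call. Leaving out 1 library, signs crossed without a call for TAL1 (-0.16 to 0.18) and MYB (-0.16 to 0.023) in footprints and, in the ratio of footprints to mRNA, for KLF1 (-0.081 to 0.22), LDB1 (-0.17 to 0.0018), GFI1B (-0.34 to 0.0069) and NFE2 (-0.32 to 0.0055). The footprint density per coding length was not run, since no coding lengths were used here.

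Replicate numbers are shared by the groups, with only 2 pairs in a comparison, and deviations of libraries with the same number correlated at 0.119 in mRNA and 0.110 in footprints across genes. With a replicate block, 4168 genes were called in mRNA, 2076 in footprints and 546 in their ratio. MYB was then called higher in mRNA (0.10, adjusted p = 0.039), HIC2 (-0.28, adjusted p = 0.035) and SPI1 (-0.53, adjusted p = 0.043) were called lower in footprints, and TAL1 in footprints was at 0.024 without a call. The causes of these changes were not tested.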
